A study of Mus musculus with 2 samples.

Results

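Bipolar cells are the interneurons that carry signals from photoreceptors to the inner retina, and 8 transcription factors that divide them into subtypes were followed here: Vsx1, Isl1, Bhlhe22, Bhlhe23, Irx5, Irx6, Prdm8 and Lhx4. They were taken by name from the 25778 genes of the deposited single-cell RNA-seq table. Whole retinas of 2 mice aged 30 days were dissociated with papain and profiled by droplet capture, with 1 mouse and 1 library per genotype. Both mice carried Chx10-Cre, a Cre transgene that is active in retinal progenitors and that remains on in bipolar cells. The control (Ptbp1-Ctrl, genotype Chx10-Cre) had intact Ptbp1, and the conditional mutant (Ptbp1-KO, genotype Chx10-Cre;Ptbp1lox/lox) had the Ptbp1 promoter and first exon flanked by loxP sites on both alleles. Ptbp1 encodes an RNA-binding protein that regulates splicing, and the comparison addressed whether its loss from progenitors alters mature retinal cells. With a single mouse per genotype, genotype and mouse cannot be told apart, so no test between genotypes was made.

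Bipolar cells are divided by the light response into ON and OFF types and by their main input into rod bipolar and cone bipolar cells. ON cells invert the photoreceptor signal through the metabotropic glutamate receptor Grm6, whereas OFF cells keep its sign through ionotropic kainate receptors such as Grik1. Combinations of homeodomain and basic helix-loop-helix factors set the subtypes. Isl1 is a LIM-homeodomain factor of ON bipolar cells, and Lhx4 is a related LIM-homeodomain factor of cone bipolar cells. Vsx1 is a paired-like homeodomain factor needed for the late differentiation of some cone bipolar cells. Irx5 and Irx6 are Iroquois homeodomain factors of OFF cone bipolar cells. Bhlhe22, also named Bhlhb5, is a basic helix-loop-helix repressor used by OFF cone bipolar and amacrine cells, and its relative Bhlhe23, also named Bhlhb4, is needed for rod bipolar cells to mature. Prdm8 is a PR-domain zinc finger repressor that partners with Bhlhe22 in other neurons and is needed for rod bipolar cells to form normally.

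The Ptbp1-Ctrl library held 16421 cells and 32758836 UMIs (unique molecular identifiers, each standing for 1 captured mRNA molecule), and the Ptbp1-KO library held 14522 cells and 35328593 UMIs. The authors' annotation called 3194 and 2549 of these cells bipolar, with a median of 2777 UMIs per bipolar cell in Ptbp1-Ctrl and 3818 in Ptbp1-KO. Ptbp1 itself had 825 UMIs in the Ptbp1-Ctrl library and 14 in the Ptbp1-KO library, of which 204 and 1 were in bipolar cells, so the targeted gene was nearly gone from the library labelled as its knockout. The study's methods give a female mouse per genotype, but Xist had only 5 and 6 UMIs in the Ptbp1-Ctrl and Ptbp1-KO libraries and each of 4 Y-linked genes had at least 43.1 and 47.9 CPM, so the libraries do not go with that sex. The libraries shared 63 cell barcodes, which were bipolar cells 10 times in Ptbp1-Ctrl and 18 times in Ptbp1-KO, and leaving those cells out moved none of the 8 ratios between genotypes in bipolar cells beyond its counting interval. Levels below are CPM, counts per 1000000 UMIs summed over the cells of a group in 1 library, with exact 95% Poisson intervals in brackets, and these intervals cover counting error only. They are always given for Ptbp1-Ctrl first and Ptbp1-KO second.

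The authors' clustering split the bipolar cells into 10 clusters, each with cells of both genotypes. Clusters 5 and 10 were rod bipolar-like by Prkca, Vstm2b and Sebox. Cluster 5 was the largest, with 771 and 690 cells, while cluster 10 was shallow, with a median of 1529 and 1858 UMIs per cell, and was led by haemoglobin and noncoding transcripts. Clusters 9 and 18 were OFF cone bipolar-like by the sum of Grik1, Neto1, Tacr3, Erbb4, Nnat and Lhx3. Of these markers, Lhx3 was instead highest in cluster 11, called ON-like below, at 93.9 and 85.2 CPM. Clusters 11, 12, 13, 19 and 20 were ON cone bipolar-like, with Grm6 and its partners beside cone bipolar genes. Examples were Cck and Cnmd in cluster 11, Sox6 in 12 and 20, Chrm2 and Slitrk5 in 13, and Igfn1 in 19. Cluster 20 was the least clear, with a median of only 1579 and 1891 UMIs per cell. Its 6 ON markers summed to 1870 and 1799 CPM, below the 2114 and 2516 CPM of cluster 9. However, its 6 OFF markers summed to only 118 and 194 CPM, against 6133 and 5860 CPM in cluster 9. Cluster 21 was left without a type name because cone genes led it, and its 5 cone markers summed to 14433 and 15027 CPM against at most 1830 CPM in any other bipolar cluster. The clusters were made from variable genes that can include these 8 factors, so differences between clusters are described and not tested.

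**Figure D1:**
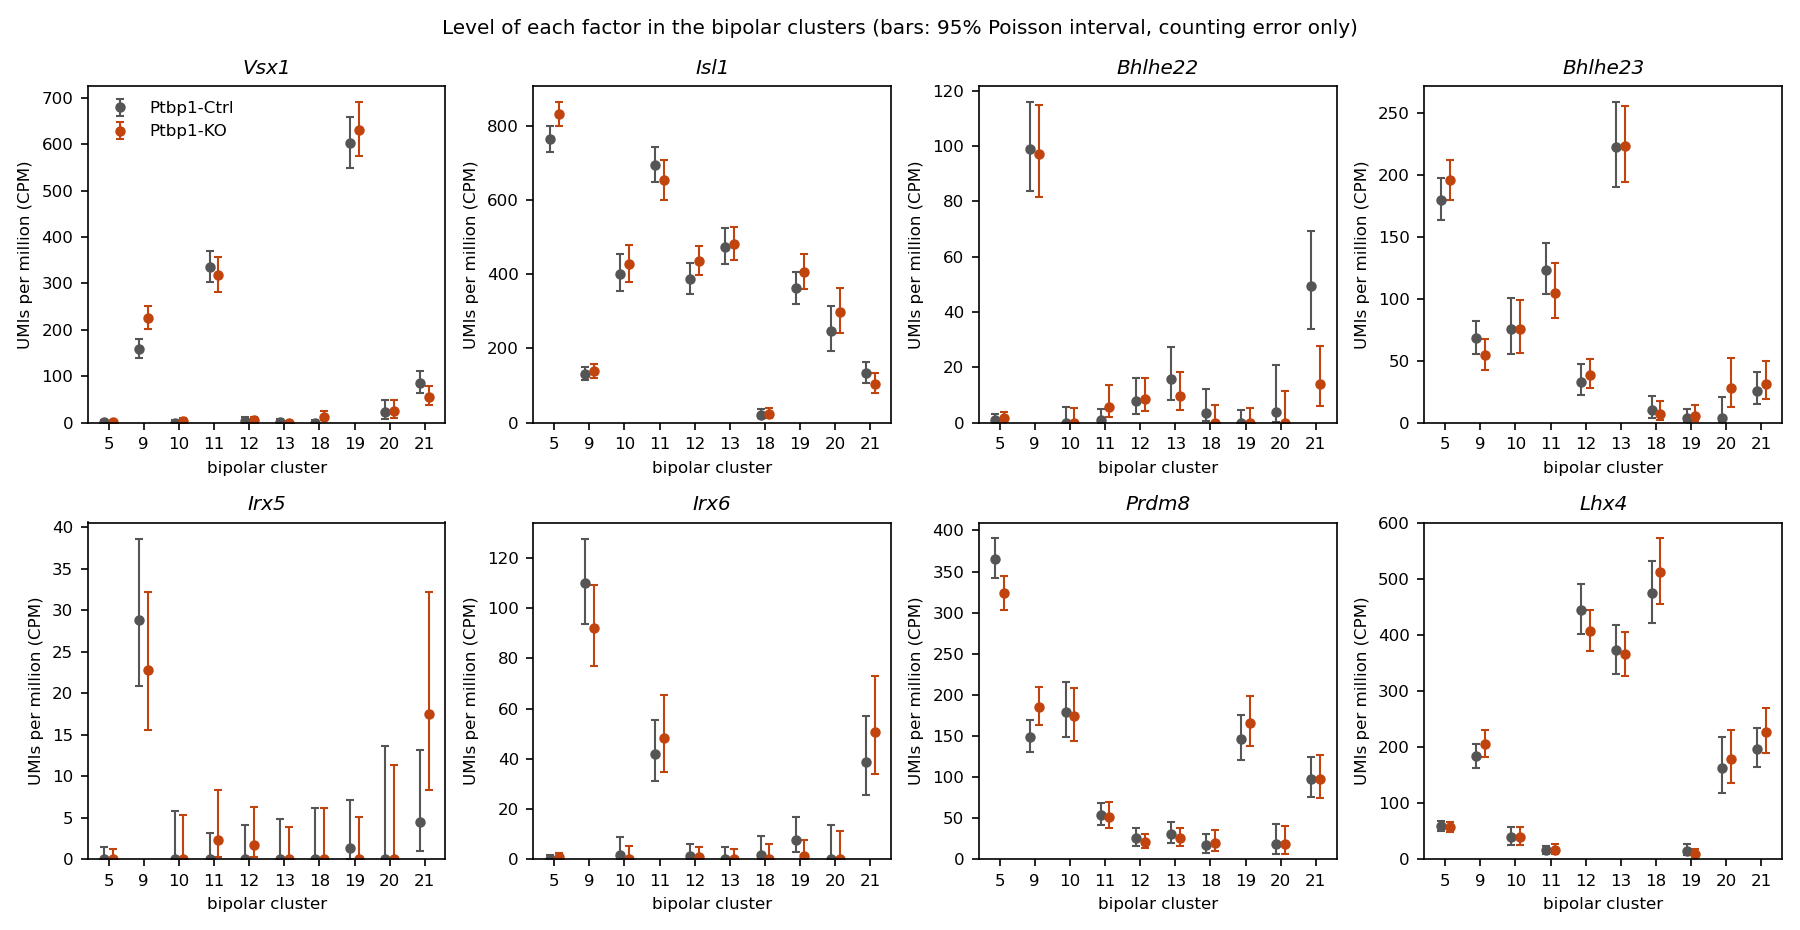
Level of each of the 8 transcription factors in the 10 bipolar clusters of the Ptbp1-Ctrl and Ptbp1-KO libraries (CPM, a panel per gene, axes starting at 0). Points are levels and bars are exact 95% Poisson intervals. Vsx1 peaks in cluster 19, Isl1 in cluster 5, Bhlhe22, Irx5 and Irx6 in cluster 9, Bhlhe23 in cluster 13, Prdm8 in cluster 5 and Lhx4 in cluster 18, in both libraries.

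Vsx1 (ENSMUSG00000033080.9, chr2:150680702-150689360, minus strand, mm10) was close to a switch among bipolar cells. Its level was 602 [548-658] and 630 [574-691] CPM in cluster 19, 335 [302-369] and 318 [281-357] CPM in cluster 11, and 159 [140-180] and 226 [202-252] CPM in cluster 9. Thus, it marked a pair of ON-like clusters and one of the OFF-like clusters. In clusters 5, 10, 12, 13 and 18 it did not exceed 11.8 CPM in either library, against 3.14 and 3.10 CPM in rods, a type that should lack Vsx1. Rod bipolar-like clusters 5 and 10 did not exceed 2.90 CPM. OFF-like cluster 18 had 0 UMIs in Ptbp1-Ctrl. In Ptbp1-KO it had 11.8 [4.73-24.2] CPM from 7 UMIs, above the 3.10 [2.26-4.15] CPM of rods. After every cell was thinned to 1000 UMIs, 43.3% and 41.6% of cluster 19 cells had a Vsx1 UMI, against 0.271% and 0.259% of rods. Cluster 19 exceeded cluster 11 by 0.85 (Ptbp1-Ctrl) and 0.99 (Ptbp1-KO) on the log2 scale, and neither interval reached 0.

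The stretch before the RefSeq start of Vsx1 is shown with that of Isl1 because the highest clusters of this pair stand far above OFF-like cluster 18. Each run is the 250 bases before the RefSeq start on build GRCm38.p6, read 5′ to 3′ on the gene's strand, with matches to TAATCC (a core bound by OTX-type homeodomain proteins) or CAGCTG (an E-box of basic helix-loop-helix proteins) on either strand in capitals. The Vsx1 window is chr2:150689138-150689387 and the Isl1 window is chr13:116309689-116309938, both on the minus strand. Most of the Vsx1 window lies within the gene span given above, which ends at 150689360, because the RefSeq start lies inside that span.
Vsx1: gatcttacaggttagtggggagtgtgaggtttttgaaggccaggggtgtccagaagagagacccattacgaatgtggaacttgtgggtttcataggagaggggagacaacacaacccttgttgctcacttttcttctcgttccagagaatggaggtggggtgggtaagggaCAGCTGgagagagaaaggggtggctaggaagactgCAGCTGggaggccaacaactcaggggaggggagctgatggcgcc
Isl1: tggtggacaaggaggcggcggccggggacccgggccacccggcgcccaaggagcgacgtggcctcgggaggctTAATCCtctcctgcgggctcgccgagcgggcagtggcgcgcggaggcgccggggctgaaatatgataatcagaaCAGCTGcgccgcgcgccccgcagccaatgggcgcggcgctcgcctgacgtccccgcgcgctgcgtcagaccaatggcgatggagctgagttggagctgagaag
The Vsx1 window held CAGCTG at 2 places, starting 79 and 44 bases before the start site, and no TAATCC. The Isl1 window held 1 TAATCC, 177 bases before the start site, and 1 CAGCTG, 103 bases before it. Among all 32851 RefSeq windows of this length, 6.25% held TAATCC and 13% held CAGCTG. Of the 8 factors, 5 had a window in the RefSeq table. Prdm8 held 1 CAGCTG, 217 bases before its start site, and these letters were not in the windows of Bhlhe23 and Lhx4. The remaining 3 are Bhlhe22, Irx5 and Irx6. The windows of Prdm8 and Lhx4 lie inside the annotated spans of those genes. The matches describe letters in the windows and do not show binding.

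Isl1 (ENSMUSG00000042258.13, chr13:116298281-116309689, minus strand) followed the ON side of the family. It reached 763 [729-799] and 831 [799-864] CPM in rod bipolar-like cluster 5, and 694 [647-743] and 653 [600-709] CPM in ON-like cluster 11. Clusters 13, 10, 12, 19 and 20 lay between 248 and 482 CPM, so every ON-like or rod bipolar-like cluster stood above the remaining clusters in both libraries. Clusters 10 and 12, and clusters 12 and 19, did not differ beyond counting error. OFF-like cluster 18 had only 21.5 [11.5-36.8] and 23.5 [12.9-39.5] CPM, near the 11.4 and 12 CPM of rods. OFF-like cluster 9 had 131 [114-151] and 138 [120-159] CPM, above cluster 18 by 2.61 and 2.56 on the log2 scale.

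Bhlhe22, Irx5 and Irx6 shared a peak in OFF-like cluster 9. Bhlhe22 (chr3:18054174-18057517, plus strand) had 98.8 [83.6-116] and 97.0 [81.4-115] CPM there. Outside clusters 9 and 21 it did not exceed 15.7 CPM in any bipolar cluster, and in rod bipolar-like cluster 10 and ON-like cluster 19 it had 0 UMIs in both libraries. Bhlhe22 was thus mostly found in OFF-like cluster 9, beside 49.4 [34.0-69.3] and 14.0 [6.04-27.6] CPM in cluster 21, the cluster led by cone genes. Irx6 (chr8:92674288-92680956, plus strand) had 110 [93.9-128] and 92.0 [76.8-109] CPM in cluster 9. Unlike Bhlhe22 it also appeared in ON-like cluster 11, at 41.8 [30.9-55.3] and 48.3 [34.8-65.4] CPM. Cluster 21 had 38.9 and 50.7 CPM of Irx6, which did not differ from cluster 11 beyond counting error, and all other bipolar clusters were at or below 7.66 CPM.

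Irx5 (chr8:92357625-92376286, plus strand) lies 298002 bp from Irx6 on the same chromosome and was much sparser, with 48 and 46 UMIs over all bipolar cells. Of these, 44 and 32 fell in cluster 9, which gave 28.8 [20.9-38.6] and 22.8 [15.6-32.2] CPM. It had 0 UMIs in both libraries in clusters 5, 10, 13, 18 and 20. In rod bipolar-like cluster 5, the deepest of these, a count of 0 allows a level of up to 1.22 and 1.01 CPM, respectively, taking 3 counts as the limit. Cluster 21, which also held Irx6, had 4.49 and 17.5 CPM of Irx5, from 3 and 10 UMIs. In Ptbp1-KO it did not differ from cluster 9 beyond counting error, with a log2 difference of 0.38 (-0.68 to 1.57), and with cells thinned to 1000 UMIs it was the highest cluster. Irx6 overlaps the antisense gene Gm45505 and the strand setting of the counting is not given, so reads of these genes may not be fully separated.

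Bhlhe23 and Prdm8 were high in rod bipolar-like cells but in neither case limited to them. Bhlhe23 (chr2:180774381-180776900, minus strand) had 180 [163-197] and 196 [180-212] CPM in cluster 5 and 223 [191-259] and 223 [194-256] CPM in ON-like cluster 13. Its level was 123 and 105 CPM in ON-like cluster 11, but only 33.1 and 38.1 CPM in ON-like cluster 12 and 3.83 and 5.53 CPM in ON-like cluster 19. The ON-like cone clusters were thereby split by Bhlhe23, with cluster 11 above cluster 19 by 5.0 and 4.24 and cluster 13 above cluster 12 by 2.75 and 2.55 on the log2 scale. Cluster 9 held 68.0 and 54.2 CPM, which did not differ from the 75.6 and 75.4 CPM of cluster 10 beyond counting error. Bhlhe23 overlaps Gm14343 on the same strand, and counts of that pair are uncertain to that degree.

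Prdm8 (chr5:98167198-98188991, plus strand) was highest in cluster 5, at 366 [342-390] and 324 [304-345] CPM. Cluster 10 had 180 and 174 CPM, OFF-like cluster 9 had 149 and 185 CPM and ON-like cluster 19 had 146 and 166 CPM. These 3 clusters formed a plateau, since neither clusters 10 and 9 nor clusters 9 and 19 differed beyond counting error. Clusters 12, 13, 18 and 20 lay between 16.6 and 30.1 CPM, below the 59.0 and 49.5 CPM of rods. The OFF-like clusters thus differed in Prdm8, with cluster 9 above cluster 18 by 3.17 and 3.20 on the log2 scale. Prdm8 overlaps the antisense gene A730035I17Rik.

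Lhx4 (chr1:155698031-155751684, minus strand) gave nearly the reverse picture, with its high levels where Prdm8 and Vsx1 were low. It reached 475 [422-534] and 512 [456-573] CPM in OFF-like cluster 18, 445 [403-491] and 407 [371-446] CPM in ON-like cluster 12, and 373 [331-419] and 366 [328-407] CPM in ON-like cluster 13. Clusters 18 and 12 did not differ beyond counting error in Ptbp1-Ctrl, with a log2 difference of 0.09 (-0.13 to 0.32), but in Ptbp1-KO cluster 18 was higher by 0.33 (0.12 to 0.54). With cells thinned to 1000 UMIs, cluster 12 was the highest in both libraries. Clusters 21, 9 and 20 sat lower at 163 to 227 CPM. Rod bipolar-like cluster 5 had 58.5 and 57.6 CPM, and ON-like clusters 11 and 19 had at most 16.1 CPM. Lhx4 was thus high in an OFF-like and 2 ON-like clusters and low in the pair of ON-like clusters with the most Vsx1.

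Read across factors, each well-sampled cluster had its own set. Cluster 5 combined Isl1, Bhlhe23 and Prdm8 at high levels with Lhx4 at a lower one, and cluster 10 had these 3 factors at lower levels, by 0.93 and 0.96 for Isl1, 1.25 and 1.38 for Bhlhe23 and 1.03 and 0.90 for Prdm8 on the log2 scale. Rod genes were more abundant in cluster 10, where 6 rod markers summed to 13076 and 10648 CPM against 6120 and 4699 CPM in cluster 5, and their part in the lower levels was not tested. Cluster 9 was the only one with at least 20 CPM of all 8 factors in both libraries, whereas cluster 18 had Lhx4 but none of the other 7 above 23.5 CPM. Among ON-like clusters, 11 held Vsx1, Isl1, Bhlhe23, Prdm8 and Irx6, cluster 19 held Vsx1, Isl1 and Prdm8, and clusters 12 and 13 held Isl1 and Lhx4 with little and much Bhlhe23, respectively.

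The correlation of levels over the 20 points that 10 clusters of 2 libraries give, on log2(CPM + 10), describes the same sets. Levels of Irx5 and Irx6 had a Pearson r of 0.84, Bhlhe22 and Irx5 of 0.84, and Bhlhe22 and Irx6 of 0.73. Lhx4 was inversely related to Prdm8 (r of -0.59), Vsx1 (-0.56) and Isl1 (-0.56). The points share their libraries and each cluster enters once per library, so these values carry no p. The gene whose pattern was most like Vsx1 was Mkx (r of 0.94), followed by Plcb1 (0.93) and Ube2q2 (0.90), out of 5587 genes. For Isl1 the nearest were Lin7a (0.96), Grm6 (0.94) and Gpr179 (0.92). For Bhlhe22 they were Ncam2 (0.92), Gsg1l2 (0.91) and Nkain3 (0.91), and for Bhlhe23 the weaker Rpap3 (0.85), Rpa1 (0.84) and Pde1b (0.83). Irx5 was most like Chrnb3 (0.96), Gsg1l2 (0.95) and Tacr3 (0.94), although Irx5 itself was below the expression filter used for the other genes. Irx6 was most like Adcy8 (0.98), Chrna6 (0.97) and 2700069I18Rik (0.97). Prdm8 was most like Hopx (0.89), Eif4g3 (0.88) and Chgb (0.86), and Lhx4 most like Cabp5 (0.95), Cdh11 (0.92) and Il1r1 (0.92).

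Outside bipolar cells the 8 factors fell into 3 patterns. Vsx1, Isl1, Bhlhe23, Irx6 and Lhx4 were mainly bipolar, with 91.2%, 92.5%, 90.7%, 87.5% and 88.6% of all their UMIs in bipolar cells. Bhlhe22 and Prdm8 were shared with other types, with 37.6% and 57.4% of UMIs in bipolar cells. Irx5 was mainly elsewhere, with only 12.9% of its 727 UMIs in bipolar cells.

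**Figure D2:**
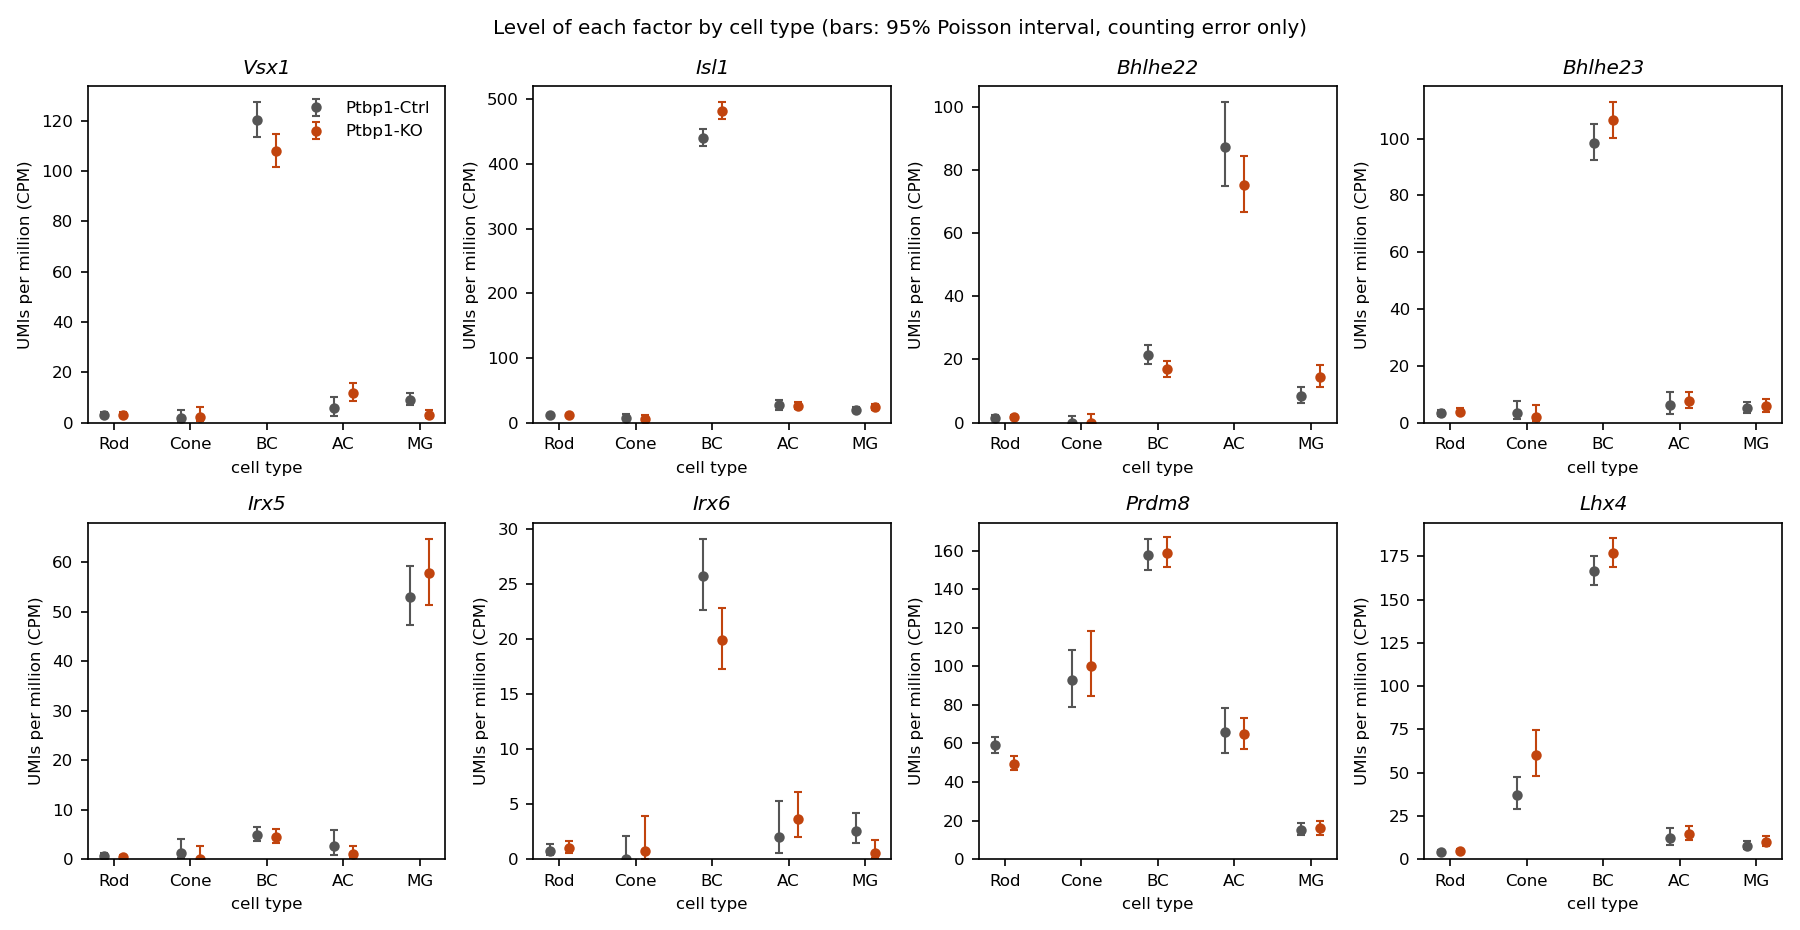
Level of each of the 8 transcription factors in 5 cell types of the Ptbp1-Ctrl and Ptbp1-KO libraries (CPM, a panel per gene, axes starting at 0). BC are bipolar cells, AC amacrine cells and MG Müller glia. Points are levels and bars are exact 95% Poisson intervals. Irx5 is highest in Müller glia and Bhlhe22 in amacrine cells, whereas the other 6 factors are highest in bipolar cells.

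Irx5 was highest in Müller glia, the main glia of the retina, at 53.0 [47.3-59.2] and 57.8 [51.4-64.8] CPM against 4.90 [3.62-6.5] and 4.49 [3.29-5.99] CPM in bipolar cells. These levels rest on 313 and 294 UMIs in glia. Rods, a type that should lack the gene, had 0.614 and 0.345 CPM. At 1000 UMIs per cell, 5.77% and 4.35% of Müller glia had an Irx5 UMI, compared with 0.326% and 0.319% of bipolar cells and 0% and 0.0486% of rods. The 0 of 5903 rods in Ptbp1-Ctrl allows a share of up to 0.0508%. The main Müller cluster alone, cluster 4, had 57.7 and 62.5 CPM. The other Iroquois genes, which were looked at after this was seen, were far lower in Müller glia. Irx6 had 2.54 and 0.59 CPM there. Irx3 was at 3.73 [2.33-5.64] and 5.51 [3.66-7.96] CPM in Müller glia. These intervals overlapped those of its 2.96 [1.98-4.25] and 3.71 [2.63-5.09] CPM in bipolar cells. Irx1, Irx2 and Irx4 had at most 1 UMI in Müller glia in either library.

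Bhlhe22 was highest in amacrine cells, the inhibitory interneurons of the inner retina, at 87.4 [74.8-102] and 75.2 [66.8-84.3] CPM, against 21.3 and 16.9 CPM in bipolar cells as a whole. The amacrine level was uneven. Amacrine cluster 6 had 137 and 110 CPM and cluster 14 had 76.1 and 79.6 CPM, while cluster 15 had 6.91 and 1.03 CPM. Amacrine cluster 6 also held most of the amacrine Prdm8, at 114 and 111 CPM, so the cluster highest in one of these partners was the highest in the other. Bipolar cluster 9, with 98.8 and 97.0 CPM of Bhlhe22, was within the range of the amacrine clusters.

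Prdm8 was also found in photoreceptors. Cones had 92.8 and 100 CPM and rods 59.0 and 49.5 CPM, beside 158 and 159 CPM in bipolar cells and 15.2 and 15.9 CPM in Müller glia. At 1000 UMIs per cell, 5.93% and 4.91% of rods had a Prdm8 UMI, compared with 0.999% and 1.04% for Isl1, so the rod share of Prdm8 stood above that of a factor that rods should lack. Lhx4 had 37.2 and 60.3 CPM in cones, where it is known to act in photoreceptor development, against 3.83 and 4.42 CPM in rods. Isl1 is also a factor of retinal ganglion cells, and these few cells had 75.1 [42.9-122] and 27.2 CPM, from 16 and 5 UMIs. Vsx1, Bhlhe23 and Irx6 did not exceed 11.9, 7.52 and 3.63 CPM in rods, cones, amacrine cells or Müller glia.

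In cluster 9, some factors shared cells more than others. For each pair, the number of cells with a UMI of both was divided by the number expected from the product of the single shares of cells, in each library. Deep cells hold more detections of every gene, so the same ratios were also taken with an expected number that allows for the depth of each cell. Irx5 and Irx6 were found together in 21 cells against 7.62 expected in Ptbp1-Ctrl (2.76 times) and in 19 against 6.96 in Ptbp1-KO (2.73 times). Vsx1 and Bhlhe22 met in 53 cells against 28.2 expected (1.88 times) and in 56 against 28.4 (1.97 times). Isl1 and Bhlhe23 met in 34 against 14.9 (2.28 times) and 25 against 12 (2.08 times). With depth allowed for, these pairs stood at 2.31 and 2.33, at 1.63 and 1.78, and at 1.95 and 1.82 times.

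Other pairs of cluster 9 had ratios below 1 in both libraries, from 3 to 25 cells each. Bhlhe23 and Irx6 were together in 8 cells against 17.8 expected (0.45 times) and 11 against 15.5 (0.71 times). Bhlhe22 and Bhlhe23 gave 0.76 and 0.55 times the expected number, Isl1 and Bhlhe22 gave 0.69 and 0.63, Irx6 and Prdm8 gave 0.67 and 0.73, and Irx5 and Prdm8 gave 0.53 and 0.27. With depth allowed for, these 5 pairs lay lower, between 0.23 and 0.65 times.

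**Figure D3:**
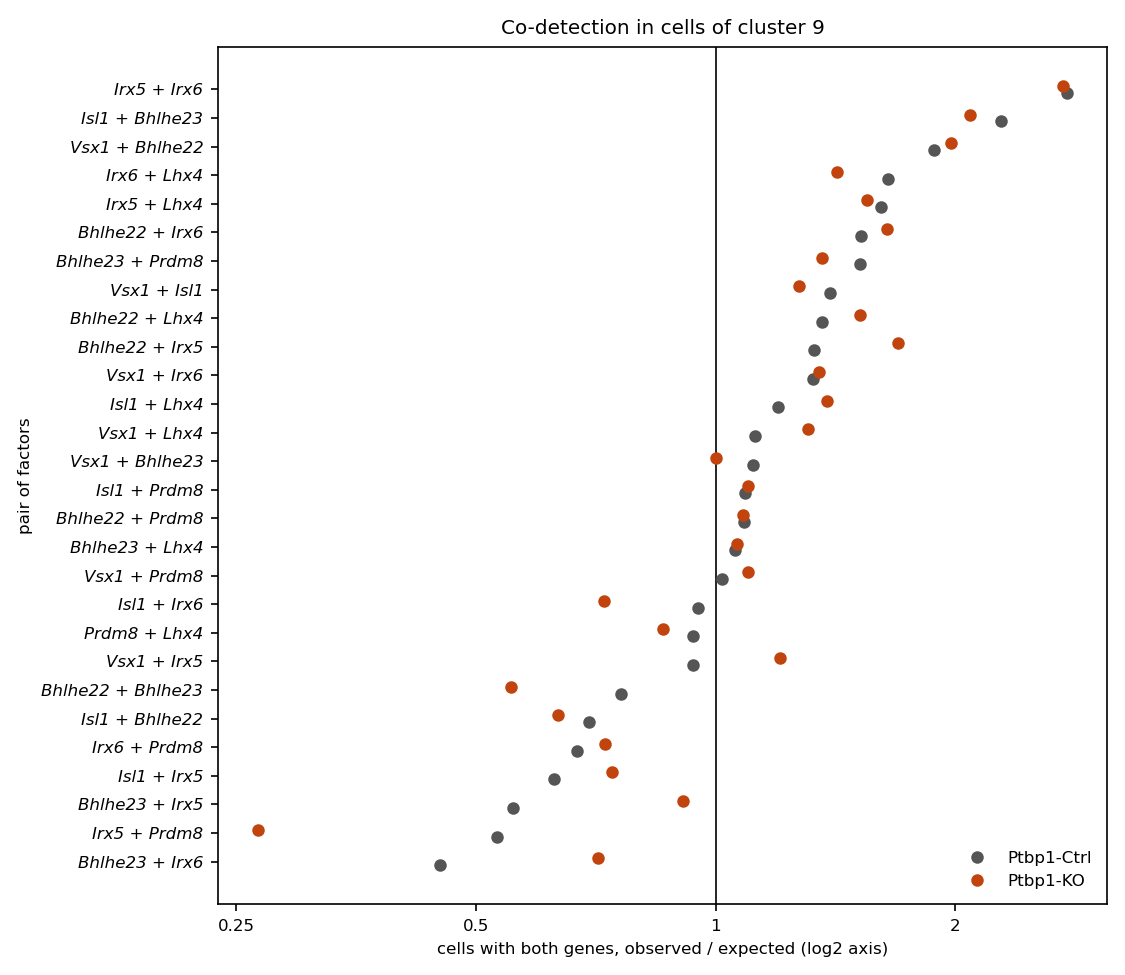
Number of cluster 9 cells with a UMI of both factors, divided by the number expected from the product of the single shares of cells, for pairs of the 8 factors (log2 axis) in the Ptbp1-Ctrl and Ptbp1-KO libraries. Irx5 with Irx6 lies at 2.76 and 2.73 and Bhlhe23 with Irx6 at 0.45 and 0.71.

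Markers of bipolar subtypes differed among these cells as well. In cluster 9, Erbb4, an OFF gene, met Irx6 at 2.23 and 2.38 times and Irx5 at 2.89 and 2.97 times the expected number, but met Prdm8 at only 0.43 and 0.34 times. The level of Erbb4 was 2.69 and 2.48 higher on the log2 scale in cells with an Irx6 UMI than in those without, and 2.50 and 2.98 lower in cells with a Prdm8 UMI. In cells with a Bhlhe22 UMI, Erbb4 was 1.16 and 1.08 lower, although Bhlhe22 and Irx6 themselves met at 1.52 and 1.64 times the expected number. Neto1, a kainate receptor auxiliary subunit, met Bhlhe22 at 1.69 and 1.76 times, and its level was 1.73 and 2.21 higher in cells with Bhlhe22. With Irx6, Neto1 met at 0.99 and 1.08 times. Grm6, the ON receptor, met Isl1 at 3.37 and 3.64 times the expected number in cluster 9, whereas Tacr3, an OFF gene, met it at 0.62 and 0.51 times. The 6 ON markers summed to 2114 and 2516 CPM in cluster 9 against 868 and 840 CPM in cluster 18, and their part in the Isl1 level of cluster 9 was not tested.

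In ON-like cluster 11, Vsx1 met Irx6 at 1.52 and 1.84 times the expected number, but met Cpne9 at 0.14 and 0.13 times and Serpini1 at 0.43 and 0.42 times. Serpini1 was 2.53 and 2.69 lower on the log2 scale in cells with a Vsx1 UMI, so the Vsx1-positive cells of this cluster were poor in a marker that its other cells held.

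The genotypes were then compared in all bipolar cells. A difference past 0.5 on the log2 scale of the CPM ratio, Ptbp1-KO over Ptbp1-Ctrl, was reached by 0 of the 8 factors, beside 12.8% of the 15075 genes with at least 20 UMIs in bipolar cells. Genes within the range of UMIs of the 8 factors passed it in 5.17% of cases, so a count of 0 among 8 is near that background. The median over the 8 factors was -0.06, against 0.02 over all genes tested. There is no replicate check for any of these ratios, and no test was made. Intervals, exact and binomial given the summed UMIs, are for counting error only and treat UMIs of the same cell as independent.

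Isl1 was at 440 and 483 CPM, a log2 ratio of 0.13 (0.07 to 0.19). Prdm8 was at 158 and 159 CPM, with a ratio of 0.01 (-0.09 to 0.11), and Lhx4 at 167 and 177 CPM, with 0.09 (-0.01 to 0.19). Bhlhe23 was at 98.6 and 106 CPM, with 0.11 (-0.02 to 0.24), so for these 4 factors the counting interval stayed well inside 0.5 on both sides. Irx5 was at 4.90 and 4.49 CPM, and its ratio of -0.13 (-0.74 to 0.49) had an interval that reached past -0.5. Vsx1 was at 120 and 108 CPM, with -0.16 (-0.28 to -0.04), Irx6 at 25.7 and 19.9 CPM, with -0.37 (-0.64 to -0.10), and Bhlhe22 at 21.3 and 16.9 CPM, with -0.34 (-0.64 to -0.04).

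The shares of clusters among bipolar cells also differed between the libraries. Cluster 11 was 13.2% [12.1-14.5] of bipolar cells in Ptbp1-Ctrl and 9.38% [8.27-10.6] in Ptbp1-KO. Cluster 19 was 6.07% [5.27-6.96] and 4.90% [4.10-5.82], with overlapping intervals. With every cluster weighted equally, the ratio of Vsx1 turned to 0.076 and that of Irx6 was -0.063. With cells thinned to 1000 UMIs, the ratio of Vsx1 was -0.30. Cluster 9 held 168 and 129 of the Irx6 UMIs and was 12.2% and 11.6% of bipolar cells. Irx6 had a ratio of -0.26 (-0.60 to 0.08) there. For Bhlhe22 the ratio was -0.18 without cluster 21, the cluster led by cone genes. The part of the cluster shares in these ratios was not tested. At 1000 UMIs per cell, the share of bipolar cells with a UMI was 34.3% and 34.2% for Isl1, 13% and 14.0% for Lhx4, 13.2% and 14.0% for Prdm8, and 8.83% and 10.5% for Bhlhe23, out of 3069 and 2507 cells deep enough. It was 7.98% and 6.5% for Vsx1, 1.82% and 1.72% for Irx6 and 1.40% and 1.32% for Bhlhe22.

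**Figure D4:**
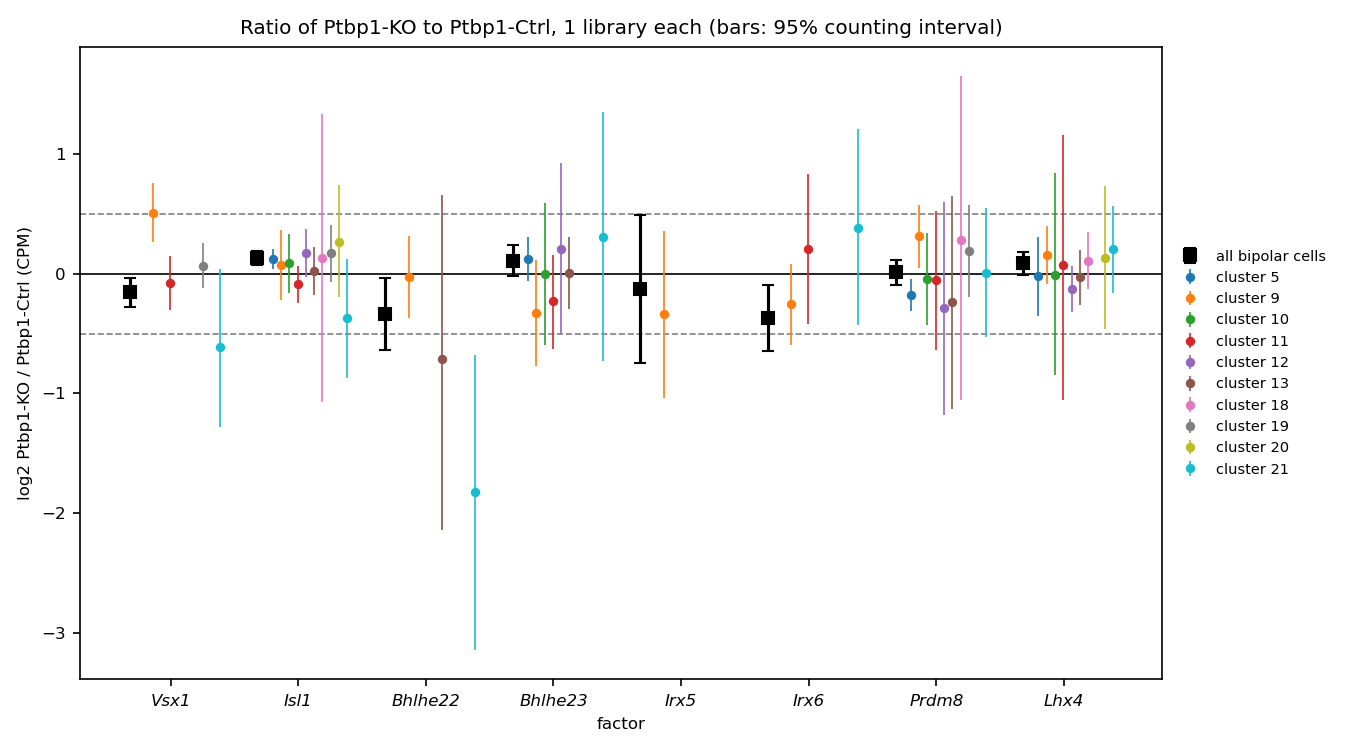
Ptbp1-KO over Ptbp1-Ctrl level (log2 ratio of CPM) of each of the 8 transcription factors in all bipolar cells and in each bipolar cluster with at least 20 UMIs, with lines as exact 95% intervals for counting error and dashed lines at 0.5 and -0.5. In all bipolar cells each point lies between -0.37 and 0.13, and Bhlhe22 in cluster 21 lies lowest at -1.82.

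Within clusters, 46 of the 80 pairs of a factor and a cluster had at least 20 UMIs over both libraries. Of these, 1 was higher by more than 0.5 in Ptbp1-KO and 3 were lower, beside 11.3% and 10.1% of all such pairs of a gene and a cluster. Vsx1 in OFF-like cluster 9 was the higher one, at 159 and 226 CPM from 243 and 317 UMIs, a log2 ratio of 0.51 (0.26 to 0.76), in a cluster where 8.86% of genes were past 0.5 in that direction. With cells thinned to 1000 UMIs this ratio was 0.22, which is no longer past 0.5. Vsx1 gave no such difference in the clusters where it was highest, with 602 and 630 CPM in cluster 19 and 335 and 318 CPM in cluster 11. The Vsx1 levels of clusters 9 and 19 thus kept their order in both genotypes.

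Of the 3 lower pairs, those of Bhlhe22 rested on few UMIs. Bhlhe22 in cluster 21 had 33 and 8 UMIs, in only 13 and 6 cells. Its level was 49.4 and 14.0 CPM, with a ratio of -1.82 (-3.14 to -0.68). Vsx1 in cluster 21 was at 85.3 and 56.0 CPM from 57 and 32 UMIs, with a ratio of -0.61 (-1.28 to 0.04). Both sit in the cluster led by cone genes, where 11.3% of genes were past 0.5 in the lower direction. Bhlhe22 in ON-like cluster 13 had 12 and 9 UMIs, with a ratio of -0.72 (-2.14 to 0.65) that turned to 1.20 with cells thinned to 1000 UMIs, and 10.0% of genes in that cluster were past 0.5 in the lower direction. In cluster 9, which holds most bipolar Bhlhe22, the level was 98.8 and 97.0 CPM.

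Prdm8 went in opposite directions in the clusters where it was best sampled. In rod bipolar-like cluster 5 it was at 366 and 324 CPM, with a ratio of -0.18 (-0.31 to -0.04) from 900 and 961 UMIs, while in OFF-like cluster 9 it was at 149 and 185 CPM, with 0.31 (0.05 to 0.58). Isl1 in cluster 5 was at 763 and 831 CPM, with 0.12 (0.04 to 0.21). The spread between mice is not part of these intervals.

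In rods, cones, amacrine cells and Müller glia together, differences past 0.5 were found for 4 pairs of a factor and a cell type. In cones, Lhx4 was at 37.2 and 60.3 CPM from 65 and 86 UMIs, with a ratio of 0.70 (0.21 to 1.18), where 10.8% of genes were past 0.5 in the higher direction. The 6 bipolar markers summed to 277 and 350 CPM in those cones, and their part in this difference was not tested. In Müller glia, Bhlhe22 was at 8.47 and 14.6 CPM, with 0.78 (0.24 to 1.33), beside 9.19% of genes in that direction. The 6 amacrine markers, from the type in which Bhlhe22 is highest, summed to 558 and 644 CPM in those glia, and their part in this difference was not tested. Vsx1 differed in Müller glia by -1.54 (-2.44 to -0.71), beside 6.52% of genes in that direction. It had 54 and 16 UMIs there, in 24 and 10 cells. Of these UMIs, 43 and 10 fell in Müller cluster 22, a deep cluster of 89 and 54 cells that also held 174 and 257 CPM of Isl1. Vsx1 in amacrine cells was at 5.62 and 11.9 CPM, with 1.08 (0.11 to 2.18), beside 8.58% of genes in that direction. This rested on 11 and 46 UMIs in 6 and 17 cells. Rods had no factor past 0.5, where 20.1% of genes were past it in either direction. Irx5 in Müller glia had a ratio of 0.13 (-0.11 to 0.36).

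Another 24 transcription factors of bipolar or retinal cells were also compared between the genotypes in bipolar cells. All 24 had at least 20 UMIs, with a median ratio of 0.08, and 1 was higher and 1 lower past 0.5, beside 8.03% and 4.81% of all genes. These were Etv1, with 38 and 59 UMIs and a ratio of 0.57 (-0.04 to 1.20), and Fezf1, with 22 and 15 UMIs and -0.62 (-1.67 to 0.39), and both intervals held 0. Otx2, a homeodomain factor of photoreceptors and bipolar cells, was at 408 and 482 CPM, with a ratio of 0.24 (0.18 to 0.30). Lmo4, a LIM-only cofactor of LIM-homeodomain proteins such as Isl1 and Lhx4, was at 140 and 181 CPM, with 0.37 (0.27 to 0.47), the largest ratio on this list after Etv1 and Fezf1. Sebox, a homeobox gene of rod bipolar cells, was at 166 and 193 CPM, with 0.22 (0.12 to 0.31). Lhx3, a close relative of Lhx4, was at 26.6 and 21.4 CPM, with -0.31 (-0.58 to -0.05).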

How the data were processed

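Retinal cells were captured with the 10x Genomics system. Per the labels and the study's methods, the authors aligned reads to mm10, counted UMIs with Cell Ranger 7.0.1 and filtered, clustered and annotated cells with Seurat 4. They deposited raw UMI counts per gene and cell, with the percent of mitochondrial counts, cell type and cluster of each cell. The gene annotation and the counting of intronic reads are not given in the sources used here. Another 2 columns of per-cell values were not used.

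The 8 members, the 24 other factors and the marker lists were chosen with earlier results of these data known. Named genes are these, Ptbp1 and, for each member, the 3 genes with the most similar pattern over the bipolar clusters (log2 of CPM plus 10, at least 50 CPM in 1 cluster of each library and at least 100 UMIs). UMIs were summed per library and cell type or cluster and divided by the sum over all genes. Intervals are 95% exact Poisson (levels), conditional binomial (ratios) and Clopper-Pearson (shares). PCR duplicates are removed by the UMIs, but cells of 1 mouse are not replicates, so no test was made. Ratios needed 20 UMIs over both libraries. Shares were taken after thinning cells to 1000 UMIs. The Scrublet caller marked 0 of 30943 cells as doublets and so did not work, and no doublets were removed in the values reported. Gene positions are from the GRCm38 annotation (mm10), matched by identifier. Python 3.11.15, SciPy 1.17.1, Scanpy 1.11.5, and edgeR 4.0.16 for normalization factors only, were used, and scripts were tested on simulated data. Alternatives covered normalization, filters, thinning, weighting, free RNA, doublet scores and clusters left out. Some genes of the lists are not reported here by name, though they enter the list counts and sums.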

Additional observations from a re-analysis of the deposited data

Results flagged for a closer look

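Each of the following ratios (log2 of the CPM ratio, Ptbp1-KO over Ptbp1-Ctrl) has a counting interval that lies apart from that of the same gene in another cluster or cell type, on the other side of 0. The difference between the groups was not tested, because each rests on 1 mouse per genotype. These intervals treat UMIs of the same cell as independent.

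Vsx1 was at 0.51 in OFF-like cluster 9 and at 1.08 in amacrine cells, but at -1.54 in Müller glia. Bhlhe22 was at -1.82 in cluster 21, the cluster led by cone genes, but at 0.78 in Müller glia. Prdm8 was at -0.18 in rod bipolar-like cluster 5 and at -0.25 in rods, but at 0.31 in cluster 9.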

How the results depend on the processing

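No paired analysis was possible because the labels carry no replicate numbers that pair samples and each genotype is 1 library, and no library can be left out. Of the 80 alternative values for the 8 ratios in bipolar cells, 73 stayed within the counting interval. With cells thinned to 1000 UMIs, Vsx1 was at -0.30, Isl1 at 0.016 and Prdm8 at 0.14. With clusters weighted equally, Vsx1 turned to 0.076, Isl1 was at 0.071 and Irx6 at -0.063. With a mean over cells Vsx1 was at -0.30. Over all settings Irx5 changed direction, from -0.41 to 0.36, and Bhlhe22 ran from -0.52 to -0.093. The count of members past 0.5 was 0 in 10 alternatives and 1 with free RNA subtracted (Bhlhe22 at -0.52, beside 19.3% of all genes). The share of all genes past 0.5 was 12.8% with at least 20 UMIs, 26.8% with no minimum, 4.88% with at least 100 UMIs and 3.38% past 1. Within clusters, 165 alternative ratios kept within their interval, 14 moved and 1 turned, Bhlhe22 in cluster 13 at 1.20 with thinned cells against -0.72, from 12 and 9 UMIs. The cluster with the highest level was kept in 29 alternatives, but with thinned cells it became cluster 21 for Irx5 in Ptbp1-KO and cluster 12 for Lhx4 in both libraries. With thinned cells the type with the highest level was kept for all 16 pairs of a member and a library, but its level moved beyond the interval in 11, to 109 and 88.6 CPM for Vsx1, 68.8 and 56.1 for Bhlhe22 and 60.1 and 45.2 for Irx5 in both libraries, to 485 for Isl1, 20.2 for Irx6 and 156 for Lhx4 in Ptbp1-Ctrl, and to 114 for Bhlhe23 and 168 for Prdm8 in Ptbp1-KO. Allowing for cell depth kept all 16 co-detection ratios within counting error of their value. The alternatives with this allowance, without cluster 21, without clusters 10, 20 and 21, without shared barcodes and, within clusters, with cells of at least 1500 UMIs only, were chosen after seeing the data.

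Without thinning, the share of bipolar cells with a UMI (Ptbp1-Ctrl and Ptbp1-KO) was 16.0% and 15.1% for Vsx1, 58.0% and 64.1% for Isl1, 3.88% and 4.12% for Bhlhe22, 22.5% and 29.3% for Bhlhe23, 1.06% and 1.45% for Irx5, 5.32% and 4.98% for Irx6, 30.7% and 35.5% for Prdm8 and 28.7% and 35.6% for Lhx4. Depth limits Irx5 most, with 48 and 46 UMIs in bipolar cells.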

Other observations

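Otx2, a homeodomain factor of photoreceptors and bipolar cells, lay between 310 and 559 CPM in the bipolar clusters of Ptbp1-Ctrl and between 336 and 641 CPM in those of Ptbp1-KO, and its ratio between genotypes had an interval above 0 in 8 of the 10 clusters. In OFF-like cluster 18 it was at 404 and 534 CPM, with a log2 ratio of 0.40 (0.16 to 0.65), and in ON-like cluster 11 at 416 and 539 CPM, with 0.37 (0.19 to 0.56). In clusters 20 and 21 the ratio had an interval of -0.33 to 0.41 and of -0.29 to 0.28.

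Müller cluster 22 held several bipolar factors at levels that the main Müller cluster lacked. Isl1 was at 174 and 257 CPM there against 3.99 and 4.26 CPM in Müller cluster 4, and Lhx4 was at 68.7 and 99.1 CPM. Cells of cluster 22 were deep, with a median of 6076 and 7127 UMIs against 3475 and 4351 in cluster 4.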
